A study of Mus musculus with 16 samples.

Results

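The immediate early, heat shock and stress genes studied here are 34 mouse genes that cells switch on quickly when they are stimulated, handled, heated or otherwise stressed. The list of names was drawn up with earlier results of these data known, and its members were then taken by name: every probe set (a group of short probes on the array that reads 1 transcript) whose gene symbol in the platform annotation was 1 of the 34 names. This gave 61 of the 45037 probe sets on the array, for 33 of the 34 names and 33 of the 18193 genes with a symbol. Hsp90ab1 was not analysed here. Each gene with several probe sets is represented by the one with the highest mean over all arrays, and levels are given as log2 values, so that a difference of 1 is a doubling.

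Total RNA of single whole female mouse embryos with 11 to 14 somites, before the cranial neural tube closes, was hybridised to 16 Affymetrix expression arrays, 1 embryo per array and 4 per group. The groups were BALB/cCrl embryos carrying the gene trap allele Cecr2Gt45Bic, called mutants here, obtained by crossing heterozygotes and given without the number of trap copies, BALB/cCrl wild types, FVB/N mutants with the same allele, obtained by crossing homozygotes, and FVB/N wild types. Both mutant lines had been backcrossed to their strain for over 10 generations. In FVB/N the genotype and the kind of cross cannot be told apart. Between the mutants of the strains, neither can the strain and the kind of cross, and the interaction of strain and genotype shares this limit. Cecr2 encodes a bromodomain subunit of a chromatin remodelling complex, and its loss leaves the cranial neural tube open in BALB/cCrl embryos, while FVB/N embryos are known to resist this. Embryos had been dissected in cold buffer, photographed and frozen, and the litter, somite count and time on ice of each embryo are not known here. Whole embryos mix many tissues, so that fewer cells of a type and less RNA per cell cannot be told apart.

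Immediate early genes such as Fos, Jun, Egr1 and Ier2 are transcribed within minutes of a signal without new protein synthesis, chiefly through serum response factor, and their products are transcription factors or feedback inhibitors. Heat shock genes are switched on by heat shock factor, which binds inverted repeats of the bases GAA once unfolded protein draws chaperones away from it. The inducible HSP70 genes Hspa1a and Hspa1b, their co-chaperone Dnajb1 and the HSP110 gene Hsph1 are its classical targets, whereas Hspa8 is a cytosolic chaperone that cells make in quantity also without stress. Unfolded protein in the endoplasmic reticulum induces the chaperone Hspa5, and the integrated stress response works through Atf4 and its targets Atf3, Ddit3 and Trib3.

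The targeted gene fitted the labels: the Cecr2 probe set 1457039_at lay at 5.90 to 6.04 in BALB/cCrl mutants, against 8.07 to 8.64 in BALB/cCrl wild types. It lay at 6.15 to 6.37 in FVB/N mutants, against 8.14 to 8.51 in FVB/N wild types. Over all probe sets, arrays lay 0.136 to 0.203 (root mean square, log2) from the mean of the other 3 of their group. Probe sets more than 1 log2 unit from that mean numbered 98 and 58 in FVB/N mutants 3 and 4, against 7 and 21 in mutants 1 and 2, and 108 in BALB/cCrl mutant 2, the most of any array. At a probe set of the enzyme Phgdh, BALB/cCrl mutant 4 and wild type 1 read 11.29 and 11.23. The other BALB/cCrl embryos read 4.995 to 5.60 there, and the FVB/N embryos 12.05 to 12.28. Whether mutant 4 and wild type 1 share the background of the other BALB/cCrl embryos was not tested. Results that rest on FVB/N mutants 3 and 4 or on BALB/cCrl mutant 4 and wild type 1 are also given without them. Background was read from 9 Y-linked probe sets, which should be silent in female embryos and had means of 3.22 to 4.23. Of the 61 member probe sets, 3 had means within that range: Fosb 1422134_at at 3.81, Egr3 1436329_at at 3.35 and Klf6 1459718_x_at at 3.78. Fosb, an AP-1 subunit, had no other probe set, so its values below are background-level readings.

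Hspa1b, an inducible cytosolic HSP70, varied more between embryos than any other member. By probe set 1452318_a_at it read 8.01, 7.29, 7.78 and 8.02 in BALB/cCrl mutants 1 to 4, against 8.01, 7.30, 10.61 and 7.64 in BALB/cCrl wild types 1 to 4. In FVB/N it read 7.53, 8.54, 7.28 and 7.96 in mutants 1 to 4, against 9.24, 10.19, 9.03 and 7.29 in wild types 1 to 4. BALB/cCrl wild type 3 and FVB/N wild types 1, 2 and 3 lay above all 8 mutants, while the other 4 wild types lay within the range of the mutants. Its highest embryo was 10.1-fold above its lowest. The standard deviation within groups was 1.02, which ranked 14 among the 45037 probe sets, whose median was 0.124. The other Hspa1b probe sets, 1427126_at and 1427127_x_at, spanned 6.39 to 9.68 and 6.70 to 10.18 and peaked in the same embryo.

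Hspa1a, the neighbouring and nearly identical HSP70 gene, followed the same embryos by its only probe set, 1452388_at. It read 5.37, 4.997, 5.21 and 5.42 in BALB/cCrl mutants and 5.36, 5.25, 6.79 and 4.92 in BALB/cCrl wild types. In FVB/N it read 5.05, 5.52, 5.16 and 5.18 in mutants and 6.12, 6.90, 5.80 and 4.997 in wild types. The same 4 wild types were above all 8 mutants. Its standard deviation within groups, 0.588, ranked 92. The promoters of both genes came from RefSeq and ran from 250 bases before to 50 bases after the start of transcription. They were identical at 296 of 300 bases (98.7%). Transcripts this similar can share probe signal, so the 2 genes are not separate evidence, also where both enter the counts and scores below. The promoters are shown with matches to a pair of inverted heat shock units, GAANNTTC or TTCNNGAA, in capitals.
Hspa1b, mouse GRCm38.p6 chr17:34959189-34959488 (minus strand): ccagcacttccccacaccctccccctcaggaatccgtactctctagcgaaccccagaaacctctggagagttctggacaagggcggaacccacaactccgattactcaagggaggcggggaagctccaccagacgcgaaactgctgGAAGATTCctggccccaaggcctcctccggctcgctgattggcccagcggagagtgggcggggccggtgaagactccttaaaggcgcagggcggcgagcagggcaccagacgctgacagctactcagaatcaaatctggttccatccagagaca
Hspa1a, mouse GRCm38.p6 chr17:34972107-34972406 (minus strand): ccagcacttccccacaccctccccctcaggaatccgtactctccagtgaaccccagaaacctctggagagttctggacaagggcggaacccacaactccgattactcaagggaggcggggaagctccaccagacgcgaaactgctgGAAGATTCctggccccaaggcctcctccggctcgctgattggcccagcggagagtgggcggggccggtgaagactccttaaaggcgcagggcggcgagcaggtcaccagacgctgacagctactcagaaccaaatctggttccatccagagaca
In both, the single match GAAGATTC began 104 bases before the start site. A pair of units in either orientation was found in 15.1% of 27025 mouse promoters of this length and in 7 of the 26 member promoters at hand, those of Hspa1a, Hspa1b, Hsph1, Hspb1, Hspe1, Jun and Fosl2. These are sequences of the reference strain C57BL/6J, which is neither strain studied here.

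**Figure D1:**
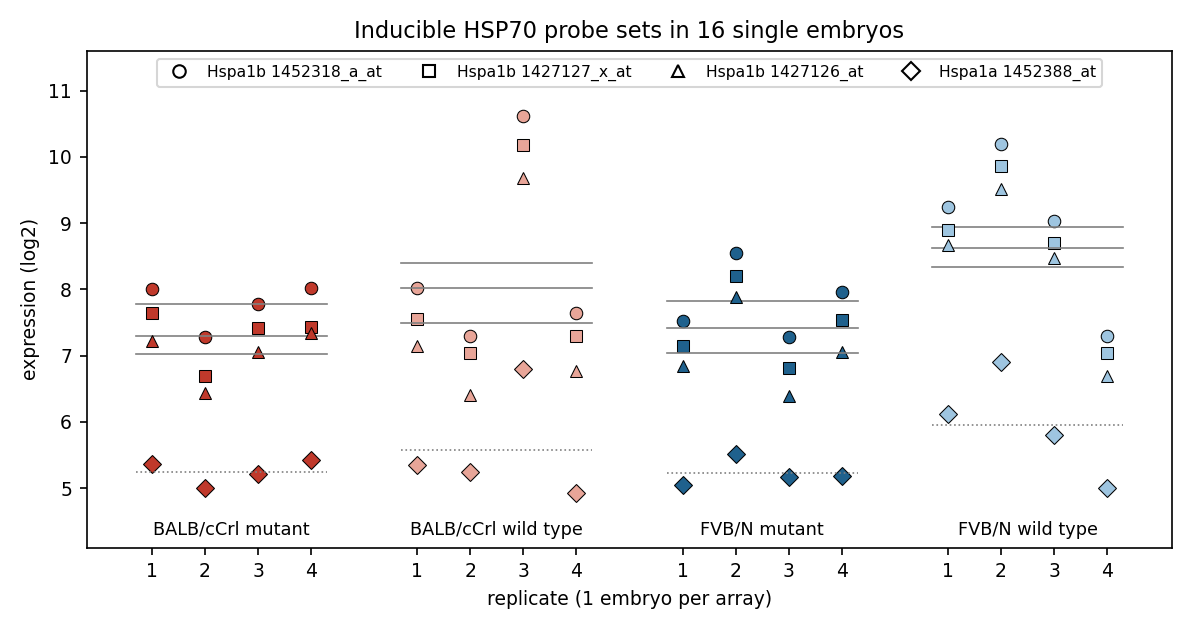
Expression (log2, vertical axis) of the 3 Hspa1b probe sets and the Hspa1a probe set in each of 16 embryos, with replicates on the horizontal axis and group means as solid (Hspa1b) or dotted (Hspa1a) lines. For every probe set, BALB/cCrl wild type 3 and FVB/N wild types 1, 2 and 3 are above all 8 mutants, and the other 4 wild types are not.

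Dnajb1, the HSP40 co-chaperone that hands substrates to HSP70, moved with Hspa1b from embryo to embryo. It read 11.42, 11.15, 11.27 and 11.35 in BALB/cCrl mutants and 11.37, 11.07, 11.75 and 11.32 in BALB/cCrl wild types. In FVB/N it read 11.06, 11.42, 11.21 and 11.27 in mutants and 11.52, 11.77, 11.45 and 11.16 in wild types. BALB/cCrl wild type 3 and FVB/N wild types 1, 2 and 3 were again the highest by this probe set, and by the other Dnajb1 probe set FVB/N wild type 3 lay within the range of the mutants. After subtraction of group means, Hspa1b and Dnajb1 correlated over the 16 embryos with Pearson's r = 0.939 and Spearman's rho = 0.921 (two-sided permutation test within groups with 100000 resamples, adjusted p = 0.0003 and 0.00042 over 6 relations). Without the 2 embryos farthest from the median of Hspa1b, BALB/cCrl wild type 3 and FVB/N wild type 4, r was 0.892. Within BALB/cCrl r was 0.935 and within FVB/N 0.945 (8 embryos each).

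The other 5 of these 6 relations, which joined immediate early genes to each other and to Hspa1b or linked the integrated stress response genes Atf4 and Trib3, did not pass. Fos, the founding AP-1 subunit, gave r = -0.01 with Egr1, 0.25 with Junb, 0.08 with Dusp1 and -0.15 with Hspa1b, and Atf4 gave 0.09 with Trib3 (permutation tests, adjusted p between 0.933 and 0.982 by Pearson). After these values were seen, Hspa1b was set against each of the other 32 members. Of these, 6 passed at an adjusted permutation p under 0.05, all with positive r: Hspa1a at 0.96, Dnajb1 at 0.94, Hsph1 at 0.90, Hspa8 at 0.83, Hspa5 at 0.74 and Ddit3 at 0.70. Ddit3, the pro-apoptotic factor CHOP, did not pass by rank (rho = 0.61, adjusted permutation p = 0.139). Without the same 2 embryos, r was 0.82 for Hspa1a, 0.78 for Hsph1, 0.77 for Hspa8, 0.55 for Hspa5 and 0.64 for Ddit3. Over the 32 relations 16 were above and 16 below 0, with a median r of 0.0023. Atf4 had the lowest r, -0.67 (adjusted permutation p = 0.0532).

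**Figure D2:**
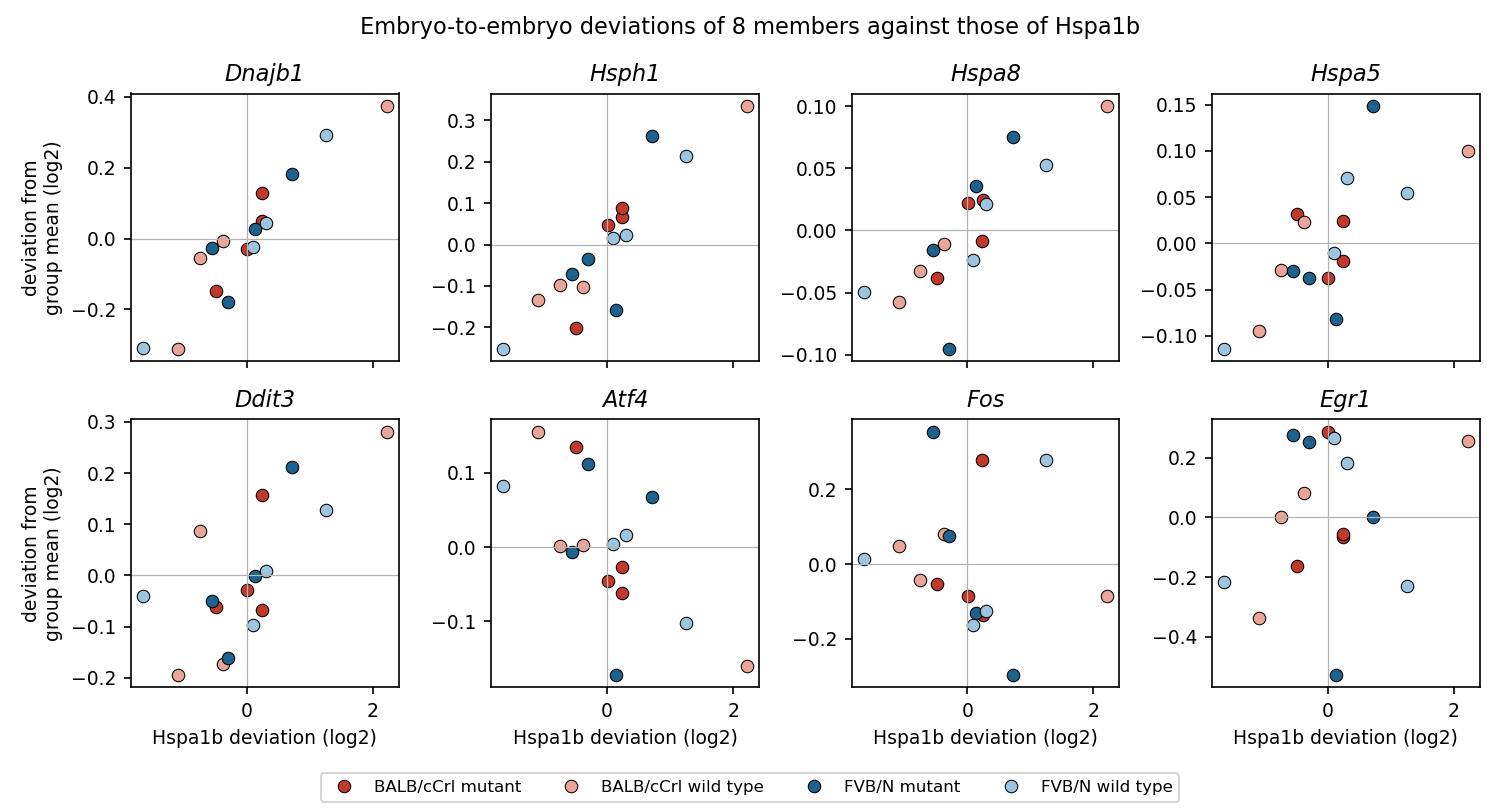
Deviation of 8 members from their group mean (log2, vertical axes, scaled per panel) against that of Hspa1b (horizontal axes), with 1 point per embryo and colours for the 4 groups. Dnajb1, Hsph1, Hspa8, Hspa5 and Ddit3 rise along Hspa1b with r between 0.70 and 0.94. Atf4, which runs the other way with r = -0.67, Fos and Egr1 show no passing relation.

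Hsph1, the HSP110 nucleotide exchange factor of HSP70, read 12.19, 11.93, 12.18 and 12.21 in BALB/cCrl mutants and 12.12, 12.09, 12.56 and 12.13 in BALB/cCrl wild types by probe set 1425993_a_at. In FVB/N it read 12.38, 12.67, 12.34 and 12.25 in mutants and 12.49, 12.69, 12.49 and 12.22 in wild types. BALB/cCrl wild type 3 was the highest of its strain, and FVB/N mutant 2 and wild type 2 the highest of theirs. Its highest embryo was 1.69-fold above its lowest, against 1.63-fold for Dnajb1 and 10.1-fold for Hspa1b. The Hsph1 promoter is shown because it held 3 matches, beginning 33 bases before and 37 and 42 bases after the start site, the last pair overlapping to form a 3-unit repeat.
Hsph1, mouse GRCm38.p6 chr5:149636287-149636586 (minus strand): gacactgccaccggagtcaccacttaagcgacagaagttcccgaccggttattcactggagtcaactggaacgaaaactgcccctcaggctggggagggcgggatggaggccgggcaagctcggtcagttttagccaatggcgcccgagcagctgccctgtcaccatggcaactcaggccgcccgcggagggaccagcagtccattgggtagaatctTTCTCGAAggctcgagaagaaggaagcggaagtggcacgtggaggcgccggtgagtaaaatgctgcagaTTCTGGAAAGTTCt
A repeat of 3 alternating GAA and TTC units, each 2 bases apart, was found on either strand in 0.529% of the 27025 promoters and in 2 of the 26 member promoters, those of Hsph1 and Hspe1. The Dnajb1 and Hspa5 windows held no pair of units.

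Hspb1, the small heat shock protein HSP27, spanned 9.98 in FVB/N wild type 4 to 10.94 in FVB/N mutant 4 and was not called with Hspa1b (r = 0.60, adjusted permutation p = 0.167). Hspa8, the constitutive HSP70, spanned 14.61 to 14.81 by its representing probe set, a 1.15-fold range, although its deviations passed with those of Hspa1b. Its dimmer probe sets 1431182_at and 1420622_a_at varied more, with within-group standard deviations of 0.306 and 0.151, against 0.0575 for the representing one. Hsp90aa1, the inducible cytosolic HSP90, had a within-group standard deviation of 0.0447. Hspd1 and Hspe1, the partners of the mitochondrial chaperonin, had the lowest spread of the 33 genes, 0.024 and 0.0359. Hspd1 lay between 14.10 and 14.19 in all 16 embryos, and 0.173% of all probe sets had a lower spread. Of the 33 representing probe sets, 14 had a spread above the array's median. After the inducible HSP70 genes the widest of these 33 were the zinc finger factor Egr1 (0.277), the survival factor Ier3 (0.263), Dnajb1 (0.211), Hspb1 (0.204) and Fos (0.201).

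The median deviation of the 5 heat shock factor targets from their means over all arrays was 0.42 in FVB/N wild type 2, 0.41 in BALB/cCrl wild type 3, 0.19 in FVB/N wild type 1, 0.18 in FVB/N wild type 3 and 0.13 in FVB/N mutant 2. It was between -0.49 and -0.08 in the other 11 embryos. The mean deviation, which the HSP70 pair carries, was larger, at 0.84 in FVB/N wild type 2 and 0.88 in BALB/cCrl wild type 3. Some extremes of the immediate early genes fell in the same embryos, without a shared direction. Fos in BALB/cCrl wild type 3 (6.02) and Egr1 in FVB/N wild type 2 (7.07) were the lowest of their groups. Egr1 was lowest in FVB/N mutant 4 (6.42) and highest in BALB/cCrl wild type 3 (7.57), Fos was lowest in FVB/N mutant 2 (5.51) and highest in FVB/N wild type 2 (6.37), and Ier3 had both extremes in BALB/cCrl wild types, 5.93 in embryo 3 and 7.08 in embryo 2.

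**Figure D3:**
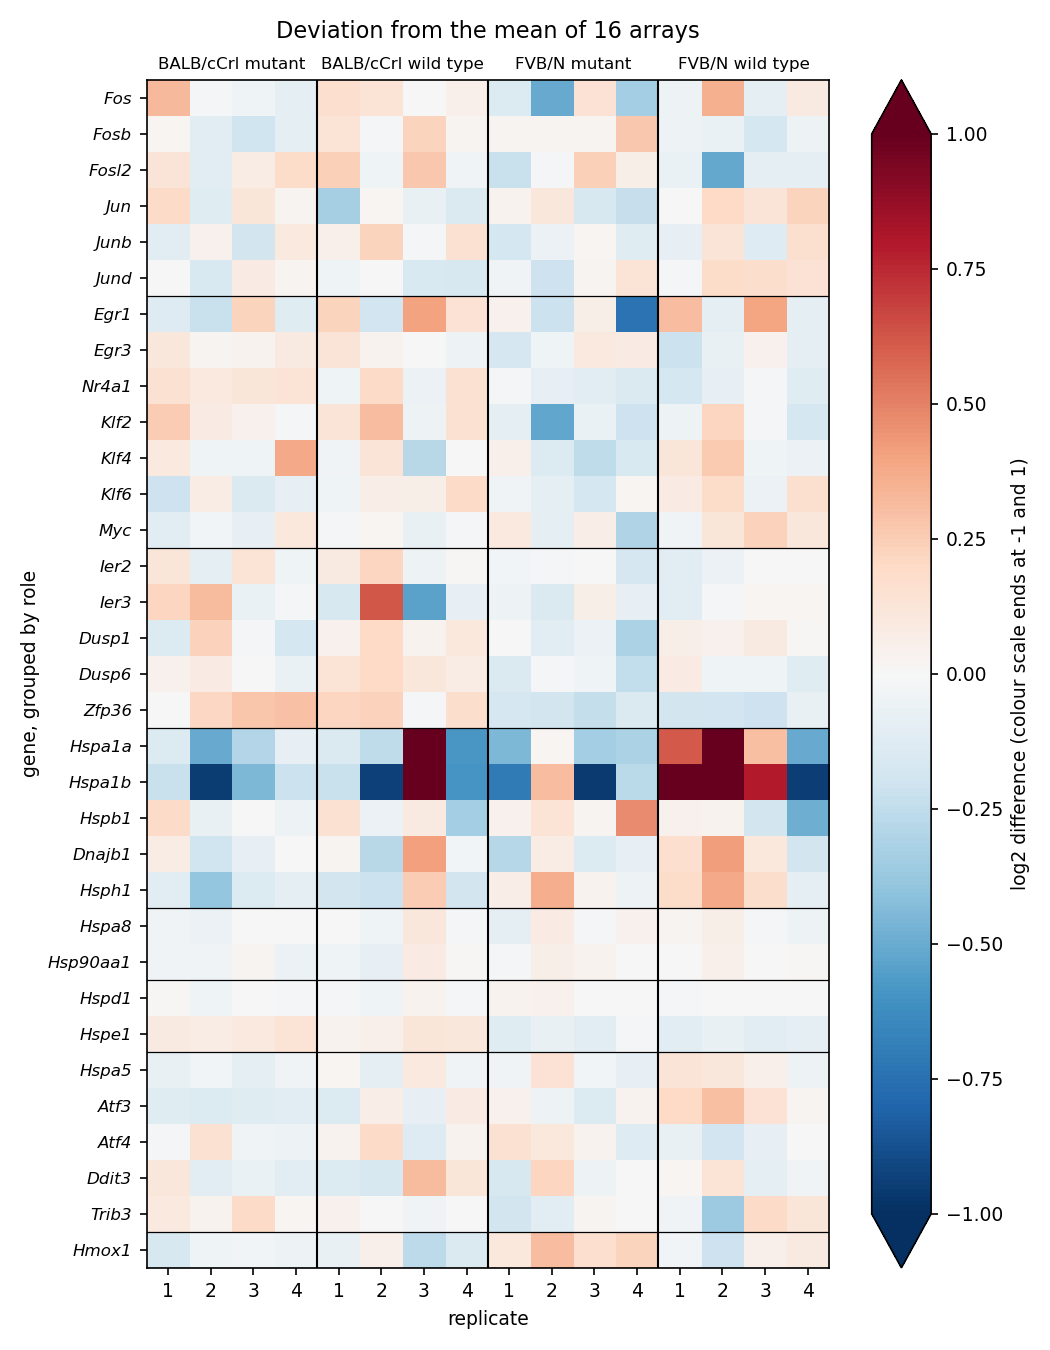
Deviation of each of 33 members (rows, by role) from its mean over 16 arrays (columns, by group), as colour on a log2 scale that ends at -1 and 1. The HSP70 genes carry the strongest colours, red in BALB/cCrl wild type 3 and FVB/N wild types 1 to 3 and blue in most other embryos, while Hspd1, Hspa8 and Hsp90aa1 are nearly white throughout and Hspe1 is pale red in BALB/cCrl and pale blue in FVB/N.

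Hspa1b deviations were also set against the mean level of 7 marker lists for other tissues, since the embryos could differ in makeup. The neural tube list (6 genes) gave r = -0.47 and rho = -0.62, with an adjusted permutation p of 0.211 by Pearson over 7 lists and an adjusted permutation p of 0.0757 by rank. Without BALB/cCrl wild type 3 and FVB/N wild type 4 its r was -0.72. The cardiac muscle list gave 0.49 (adjusted permutation p = 0.653), and 0.09 without these 2 embryos. The other 5 lists lay between -0.26 and 0.19, but without these 2 embryos trophoblast and decidua stood at 0.66 and endothelium at 0.40, against 0.11 and -0.26 with them. The defining leukocyte genes Itgam and Ptprc and the trophoblast gene Tpbpa had means in the range of the Y-linked probe sets. The part of tissue makeup in the HSP70 readings was not tested further.

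The first question of the design was what the Cecr2 trap changes within each strain. In BALB/cCrl no member probe set passed limma's test at an adjusted p under 0.05, against 9 of all 45037 probe sets (0.02%). The smallest adjusted p of a member was 0.329, and 5 of 61 had an unadjusted p under 0.05, against 9.54% of all. The largest differences were in the most variable genes. Hspa1b differed by -0.62 (SE 0.57, adjusted p = 0.773, limma) and Hspa1a by -0.33 (SE 0.33, adjusted p = 0.798), and both rest on BALB/cCrl wild type 3, without which they were 0.12 and 0.07. Egr1 differed by -0.21 (adjusted p = 0.727), and by -0.12 without BALB/cCrl wild type 3 and -0.32 without wild type 2. The highest positive values were 0.19 for Jun, 0.15 for Ier3 and 0.14 for Klf4 (adjusted p = 0.522, 0.7995 and 0.716). Over the 33 genes 11 differences were above and 22 below 0, with a median of -0.04, and the median of all genes was -0.01. Of all genes, 52.8% lay below 0.

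In FVB/N 2 of 61 member probe sets passed, both lower in mutants, and 268 of all probe sets did (0.595%), with 0.42% of all lower. Klf4, a Krüppel-like factor of epithelia and pluripotent cells, read 6.25, 5.92, 6.20 and 6.24 in mutants, against 6.53, 6.74, 6.46 and 6.57 in wild types, by probe set 1417395_at. The groups did not overlap. The mean was 6.15 ± 0.16 in mutants and 6.58 ± 0.12 in wild types (SD, n = 4 each), a difference of -0.42 (SE 0.09, 1.34-fold, limma adjusted p = 0.0467). The representing Klf4 probe set, 1417394_at, differed by -0.19 (adjusted p = 0.502).

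Klf6, a related factor induced by injury, read 7.61, 8.18, 7.73 and 7.77 in FVB/N mutants, against 8.16, 8.28, 8.36 and 8.39 in wild types, by probe set 1427742_a_at. Mutant 2 lay just above the lowest wild type, and the other 3 mutants were lower. The difference was -0.48 (SE 0.11, 1.39-fold, limma adjusted p = 0.0467), while the representing probe set 1433508_at differed by -0.16 (adjusted p = 0.385). In BALB/cCrl, where no Klf6 probe set passed, 1433508_at averaged 8.65 in mutants, against 8.80 in wild types. There 1447448_s_at averaged 7.78 against 8.05, and in FVB/N 7.85 against 8.12. By 1427742_a_at and 1418280_at BALB/cCrl mutants were not lower, at 8.31 against 8.19 and 6.95 against 6.91 in wild types. Both calls were lost without FVB/N mutants 3 and 4, at -0.49 (adjusted p = 0.179) for Klf4 and -0.40 (adjusted p = 0.360) for Klf6. The Pax3 probe set 1430335_a_at was lower in FVB/N mutants than in FVB/N wild types (-0.41, limma adjusted p = 0.0458). Pax3 has other probe sets on the array, and the neural tube list used another, 1420389_at. That list lay at 9.24 to 9.61 in FVB/N mutants, against 9.48 to 9.66 in wild types, with overlap. In the authors' gcRMA tables of each pair, the 3′ minus 5′ difference of the Gapdh control probe sets (log2) was -0.042 to 0.021 in FVB/N mutants, against -0.095 to -0.042 in FVB/N wild types, and 0.0058 to 0.028 in BALB/cCrl mutants, against -0.040 to 0.0024 in BALB/cCrl wild types. That of Actb was 0.56 to 0.68 in FVB/N mutants, against 0.49 to 0.64 in FVB/N wild types, and 0.52 to 0.64 in BALB/cCrl mutants, against 0.58 to 0.71 in BALB/cCrl wild types. The part of the neural tube markers and of RNA ends in the Klf4 and Klf6 differences was not tested.

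The HSP70 genes were lower on average in FVB/N mutants but within the spread of the embryos. Hspa1b had a mean of 7.83 ± 0.55 in mutants and 8.94 ± 1.21 in wild types (SD, n = 4 each), a difference of -1.11 (SE 0.57, 95% interval -2.31 to 0.08, limma adjusted p = 0.451). The exact permutation test gave p = 0.143, two-sided, and the smallest it can give is 0.0286 over 70 splits. Hspa1a differed by -0.72 (SE 0.33, adjusted p = 0.394, exact permutation p = 0.143). FVB/N wild type 4, at 7.29, lay among the mutants for Hspa1b. Without FVB/N wild type 2 the Hspa1b difference was -0.69 and without wild type 4 it was -1.66. Dnajb1 differed by -0.23 (adjusted p = 0.459) and Hsph1 by -0.06 (adjusted p = 0.870).

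The remaining members were closer. Hspb1 differed by 0.32 (SE 0.12, adjusted p = 0.271), Hmox1, the haem oxygenase of the oxidative stress response, by 0.23 (SE 0.08, adjusted p = 0.230) with groups that did not overlap, and Fosl2 by 0.21 (adjusted p = 0.5002), while its other probe set differed by -0.31 (adjusted p = 0.232). Egr1 differed by -0.34 (adjusted p = 0.416), and by -0.17 without FVB/N mutant 4. Without FVB/N wild type 2 the Fosl2 value was 0.10, and without wild type 4 the Hspb1 value was 0.21. Over the 33 genes 11 differences were above and 22 below 0 in FVB/N, with a median of -0.06 against 0.00 for all genes. Of all genes, 49.3% lay below 0. The share of members with an unadjusted p under 0.05 was 31.1% (19 of 61) in FVB/N, against 12.1% of all probe sets. That members tended lower in FVB/N mutants was known when they were chosen, so neither this share nor the count below 0 is independent evidence. Groups did not overlap for 4 of 61 members in FVB/N (6.56%, against 6.83% of all) and for 2 in BALB/cCrl (3.28%, against 5.12%).

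**Figure D4:**
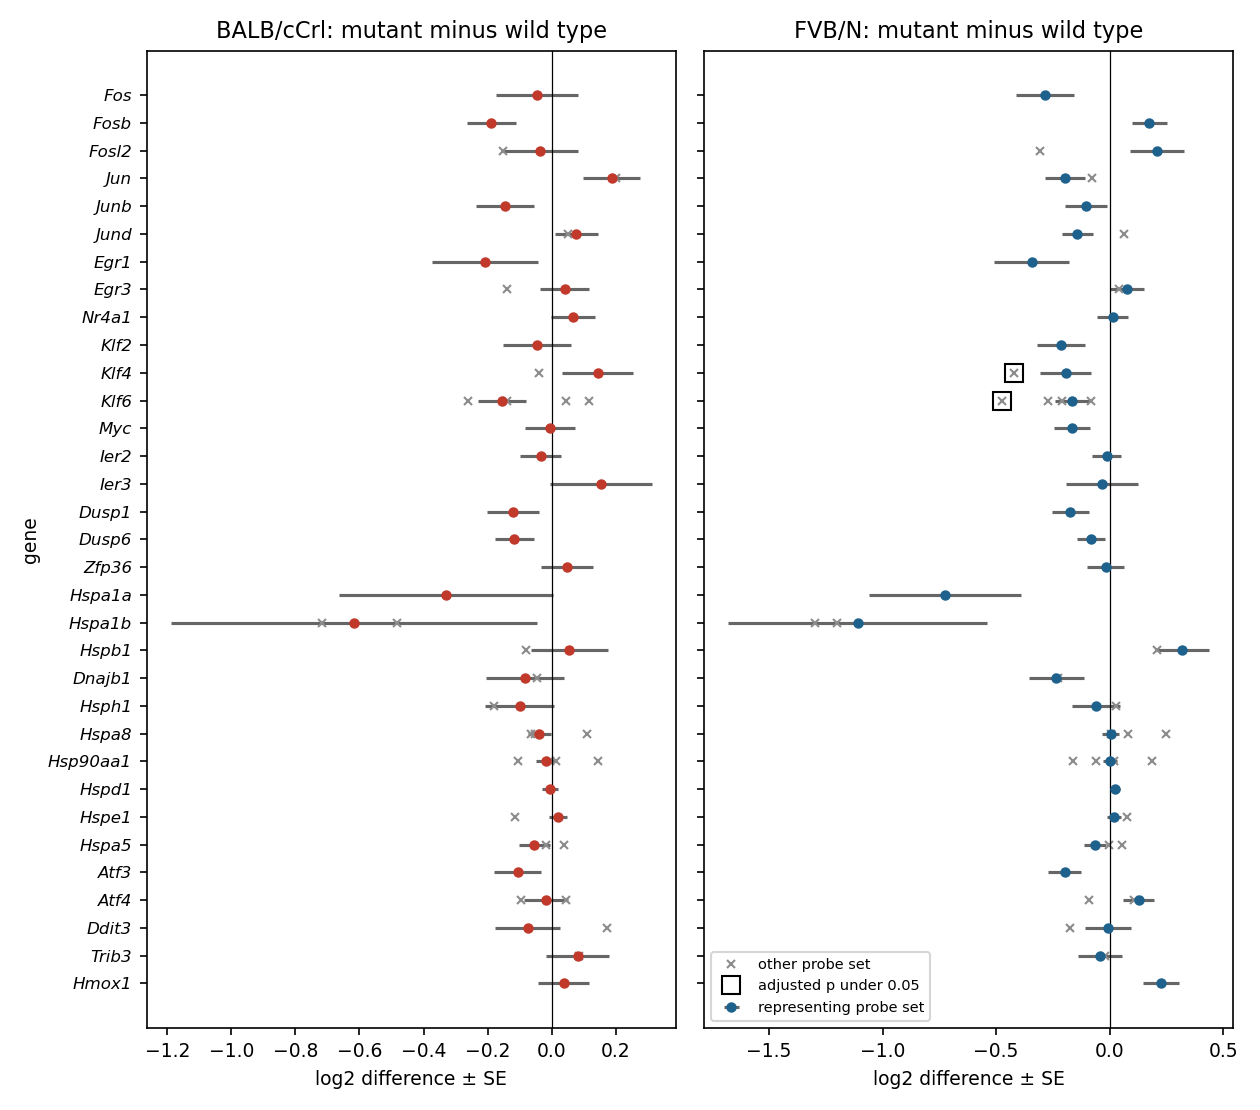
Difference between mutants and wild types (log2, horizontal axes) of 33 members in BALB/cCrl (left) and FVB/N (right), with the SE for the representing probe set, crosses for other probe sets and boxes for an adjusted p under 0.05. The boxes hold 1 probe set of Klf4 and 1 of Klf6 in FVB/N, and the HSP70 genes have the widest errors.

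Whether the trap acts differently in the strains was tested by the interaction. No member passed, against 34 of all probe sets (0.0755%), and 11 of 61 had an unadjusted p under 0.05 (18.0%, against 7.92%). The interaction, the BALB/cCrl difference minus that of FVB/N, was 0.49 for Hspa1b (SE 0.81, adjusted p = 0.930) and 0.38 for Jun (SE 0.13, adjusted p = 0.379). In the mean of both strains no member passed either, against 205 of all probe sets (0.455%). There, 16 of 61 had an unadjusted p under 0.05 (26.2%), against 13.7% of all. Since the members were chosen with earlier results known, this share and that of the interaction are no independent evidence. Hspa1b differed by -0.86 in the mean of both strains (SE 0.40, adjusted p = 0.354, limma).

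Between the strains, the mitochondrial co-chaperonin Hspe1 and the mRNA decay factor Zfp36 were higher in BALB/cCrl in both genotypes. In wild types 4 of 61 member probe sets passed (6.56%), against 6.74% of all, and in mutants 7 of 61 (11.5%), against 10.8% of all. In wild types 3 were higher and 1 lower in BALB/cCrl, against 2.88% and 3.86% of all, and in mutants 5 were higher and 2 lower, against 4.89% and 5.91% of all, so members differed between strains about as often as other probe sets. The promoter of Hspe1, the member with the lowest strain p, is shown with its 3 overlapping matches, which began 89, 84 and 79 bases before the start site. This stretch lies within the span of the neighbouring gene Hspd1 (chr1:55077833-55088243), so the matches cannot be assigned to Hspe1 alone.
Hspe1, mouse GRCm38.p6 chr1:55087898-55088197 (plus strand): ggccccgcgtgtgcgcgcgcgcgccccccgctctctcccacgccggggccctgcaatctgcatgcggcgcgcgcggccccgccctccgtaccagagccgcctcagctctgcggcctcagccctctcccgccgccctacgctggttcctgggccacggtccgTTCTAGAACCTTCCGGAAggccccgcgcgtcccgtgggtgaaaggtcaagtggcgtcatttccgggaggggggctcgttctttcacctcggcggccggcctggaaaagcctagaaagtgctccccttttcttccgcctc
Hspe1 by probe set 1422579_at read 13.01, 13.04, 12.99 and 12.99 in BALB/cCrl mutants, against 12.79, 12.81, 12.72 and 12.76 in FVB/N mutants. Among wild types it read 13.12, 13.13, 13.12 and 13.13 in BALB/cCrl, against 12.75, 12.70, 12.67 and 12.64 in FVB/N. Every BALB/cCrl embryo lay above every FVB/N embryo. The difference was 0.24 in mutants (SE 0.03, 1.18-fold, adjusted p = 2.43e-05) and 0.43 in wild types (SE 0.03, 1.35-fold, adjusted p = 7.77e-09, limma). The representing probe set 1450668_s_at differed by 0.18 in both (SE 0.03, adjusted p = 0.000201 in mutants and 0.000235 in wild types). Hspd1, the chaperonin ring that Hspe1 caps, differed by -0.03 in mutants and by 0.00 in wild types, within the spread (adjusted p = 0.476 and 0.952).

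Zfp36, which binds and destabilises early response mRNAs, read 6.57, 6.78, 6.85 and 6.86 in BALB/cCrl mutants, against 6.40, 6.39, 6.33 and 6.43 in FVB/N mutants. It read 6.79, 6.80, 6.55 and 6.74 in BALB/cCrl wild types, against 6.38, 6.38, 6.36 and 6.49 in FVB/N wild types. The strains did not overlap in either genotype, and the differences were 0.38 (SE 0.08, adjusted p = 0.00364) in mutants and 0.32 (SE 0.08, adjusted p = 0.0194) in wild types by limma. Without BALB/cCrl wild type 1 and mutant 4 the wild type call was lost, at 0.29 (adjusted p = 0.0665).

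Jun, the AP-1 subunit, was lower in BALB/cCrl wild types than in FVB/N wild types by probe set 1448694_at. It read 8.27, 8.30, 8.18 and 8.21 in BALB/cCrl, against 8.43, 8.53, 8.63 and 8.66 in FVB/N, with no overlap and a difference of -0.32 (SE 0.06, 1.25-fold, limma adjusted p = 0.00253). In mutants the same probe set differed by -0.04 (adjusted p = 0.777), and the representing probe set 1417409_at differed by -0.27 in wild types (adjusted p = 0.0838). Fosl2 differed by 0.30 in wild types without passing (adjusted p = 0.158), and by 0.19 without FVB/N wild type 2. Hspa1b and Hspa1a differed by -0.55 and -0.37 in wild types (adjusted p = 0.682 and 0.616), and these values rest on single embryos: they were -1.29 and -0.78 without BALB/cCrl wild type 3, and -0.13 and -0.06 without FVB/N wild type 2.

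In mutants, where strain and kind of cross cannot be told apart, 4 more genes passed. Klf6 by probe set 1427742_a_at read 8.32, 8.47, 8.26 and 8.197 in BALB/cCrl mutants, against 7.61, 8.18, 7.73 and 7.77 in FVB/N mutants, without overlap (0.49, SE 0.11, 1.40-fold, adjusted p = 0.00398). Its probe sets disagree: the representing 1433508_at differed by -0.02 (adjusted p = 0.938), 1447448_s_at by -0.06 and 1418280_at by 0.19 (adjusted p = 0.813 and 0.379). Nr4a1, an orphan nuclear receptor of the early response, read 8.19, 8.14, 8.16 and 8.17 in BALB/cCrl mutants, against 8.02, 7.96, 7.92 and 7.89 in FVB/N mutants (0.22, SE 0.07, adjusted p = 0.0491). Both probe sets were higher in BALB/cCrl, and both calls were lost without FVB/N mutants 3 and 4, at 0.42 (adjusted p = 0.0544) and 0.18 (adjusted p = 0.203). The Nr4a1 call was also lost without BALB/cCrl wild type 1 and mutant 4, at 0.21 (adjusted p = 0.0908). Hsph1 by probe set 1423566_a_at was lower in BALB/cCrl mutants, at 11.25, 11.06, 11.37 and 11.34, against 11.57, 11.89, 11.61 and 11.58 in FVB/N mutants (-0.41, SE 0.11, 1.33-fold, adjusted p = 0.0144). Its representing probe set differed by -0.28 (adjusted p = 0.104). Hmox1 was lower as well, at 7.84, 7.96, 7.97 and 7.95 in BALB/cCrl mutants, against 8.10, 8.31, 8.17 and 8.22 in FVB/N mutants (-0.27, SE 0.08, 1.21-fold, adjusted p = 0.0309, limma), and lost its call without FVB/N mutants 3 and 4 (-0.28, adjusted p = 0.0900) and without BALB/cCrl wild type 1 and mutant 4 (-0.28, adjusted p = 0.0600).

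**Figure D5:**
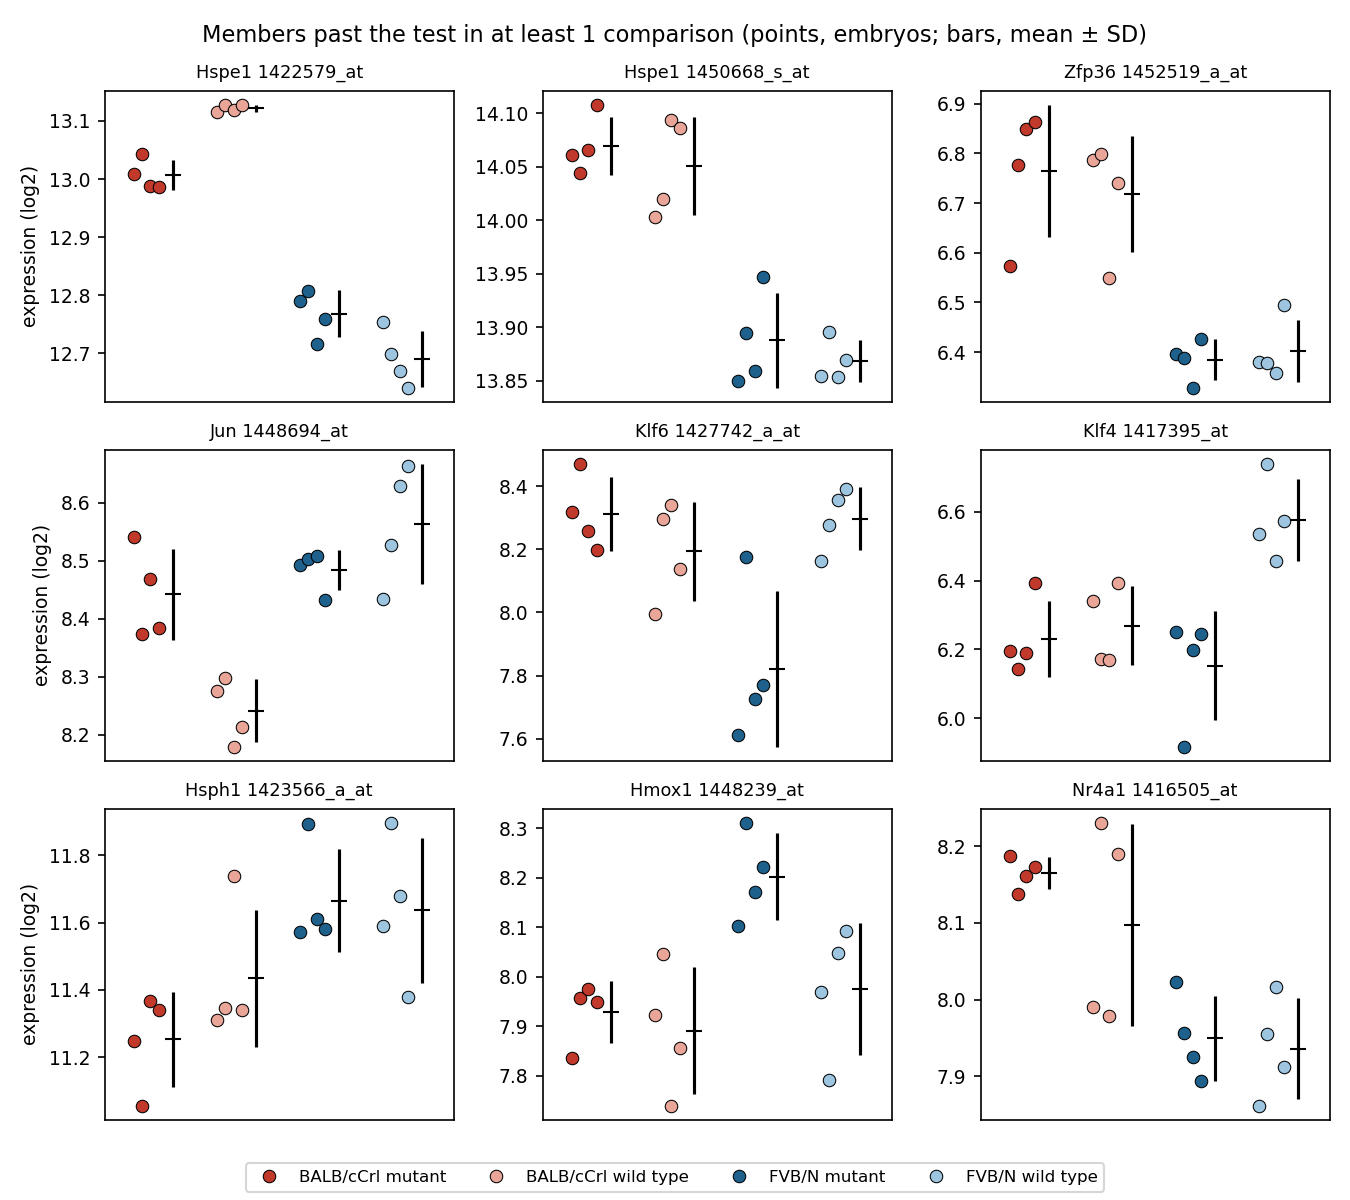
Expression (log2, vertical axes, scaled per panel) of the 9 member probe sets that passed in at least 1 comparison, with points for embryos, bars for the mean and SD (n = 4) and colours for the 4 groups. Hspe1 and Zfp36 separate the strains in both genotypes, Jun separates them in wild types, and Klf6 and Klf4 are lowest on average in FVB/N mutants.

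Klf2, the flow-responsive factor of endothelium, differed by 0.31 between BALB/cCrl and FVB/N mutants without passing (adjusted p = 0.0682), and the endothelial marker list lay at 8.02 to 8.36 in BALB/cCrl mutants and 8.05 to 8.36 in FVB/N mutants. Fos differed by 0.25 (adjusted p = 0.257), or 0.15 without FVB/N mutant 2, and Fosb, at background, by -0.18 (adjusted p = 0.139). Strains did not overlap for 13 of 61 members in mutants (21.3%, against 13.2% of all) and for 7 of 61 in wild types (11.5%, against 15% of all). The primitive erythroid list had 5 of 9 probe sets higher in BALB/cCrl mutants, against 4.89% of all probe sets. Its mean lay at 11.99 to 12.33 in BALB/cCrl mutants, against 11.42 to 12.05 in FVB/N mutants. The cardiac muscle list had 4 of 10 higher in BALB/cCrl wild types, against 2.88% of all probe sets. Its mean lay at 10.56 to 10.92 in BALB/cCrl wild types, against 10.04 to 10.68 in FVB/N wild types. The part of these lists in the strain differences was not tested. The mutant and the wild type comparison of the strains share no arrays, whereas the comparisons within a strain share its mutants or its wild types with those between strains.

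The probe sets with the highest reading in their role group were those of Hspa8 (14.70), Hspd1 (14.15), Hspa5 (13.92), Hsph1 (12.31), Jund (10.97), Ier2 (10.26), Myc (9.87) and Hmox1 (7.999), as means over the 16 arrays, and since probe sets differ in brightness these readings set no order between genes. Of these, Hspa5, Hspa8, Hspd1, Jund, Ier2 and Myc passed in no comparison by any probe set. Jund is an AP-1 subunit, Ier2 a nuclear early response protein and Myc a growth factor-induced transcription factor. The phosphatases Dusp1 and Dusp6, which switch off MAP kinases, differed by -0.17 and -0.08 in FVB/N mutants and by -0.12 each in BALB/cCrl mutants (adjusted p = 0.401, 0.620, 0.672 and 0.557). Junb, Atf3, Atf4, Ddit3, Trib3, Egr3 and Hsp90aa1 differed by at most 0.20 in either direction between mutants and wild types, and none passed.

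Other genes of the same pathways were taken from lists of general knowledge. Of 24 immediate early, 30 heat shock and chaperone, 30 unfolded protein and integrated stress response and 11 oxidative stress genes, none passed limma's test between mutants and wild types in either strain. Of their 232 probe sets, 31 had an unadjusted p under 0.05 in BALB/cCrl (13.4%, against 9.54% of all) and 40 in FVB/N (17.2%, against 12.1% of all). Between strains, 14 of 70 probe sets of the unfolded protein list passed in mutants, 11 higher and 3 lower in BALB/cCrl (20%, against 10.8% of all), and 12 in wild types, 7 higher and 5 lower (17.1%, against 6.74% of all). Hyou1, an HSP110 relative of the endoplasmic reticulum, was higher by 1.76 in BALB/cCrl mutants (8.88 ± 0.13, against 7.13 ± 0.20 in FVB/N mutants) and by 2.17 in BALB/cCrl wild types (9.07 ± 0.16, against 6.90 ± 0.24 in FVB/N wild types, SD, n = 4 each) by probe set 1423290_at, with limma adjusted p of 2.3e-09 and 8.9e-11. Its probe sets 1423291_s_at and 1451913_a_at were higher by less, 0.62 and 0.66 in mutants and 0.55 and 0.92 in wild types, and passed in both. Pdia6, a protein disulphide isomerase, was higher by 1.25 in mutants and 0.95 in wild types, and the lipoprotein receptor Vldlr by 1.21 and 0.63.

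Of 81 probe sets of the heat shock and chaperone list, 12 passed between strains in mutants, 3 higher and 9 lower in BALB/cCrl (14.8%), and 4 in wild types, 3 higher and 1 lower (4.94%), against 10.8% and 6.74% of all. Cct4, a subunit of the cytosolic chaperonin, was higher by 0.67 in mutants and 0.68 in wild types by probe set 1415868_at, while 1433447_x_at differed by -0.18 in mutants, so its probe sets disagree. Hspa4 likewise had 1 probe set at 0.76 and 1 at -0.19 in mutants. Of 53 immediate early probe sets, 5 passed in mutants (9.43%) and 3 in wild types (5.66%): the mRNA decay factor Zfp36l1, a relative of Zfp36, was higher by 0.51 and 0.39, and the antiproliferative gene Btg2 was lower, with differences of -0.54 and -0.35. Of 28 oxidative stress probe sets 3 passed in mutants (10.7%) and 2 in wild types (7.14%), with catalase (Cat) lower in BALB/cCrl, at differences of -0.56 and -0.37, and the regulator Nfe2l2 lower in wild types, at -0.38.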

How the data were processed

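Per the labels' protocols, RNA of 1 embryo was labelled with biotin and hybridised to 1 array. The authors deposited log2 expression values normalised over all 16 arrays. Per the submitters' processing notes RMA and GCRMA were used, without versions or which made which table. The authors also deposited 3 gcRMA tables of 1 pair of groups each, used as an alternative, and such tables were not used for the pair of mutants. Arrays carry no read depth, and the number of arrays limits the precision.

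All 45037 probe sets and 16 arrays were fitted in limma 3.58.1 (R 4.3.3) as 4 group means with an intensity trend and without covariates. P-values were two-sided, adjusted by Benjamini and Hochberg over all probe sets and called under 0.05. P-values measure the spread between single embryos. Relations used Python 3.11.15 with numpy 2.4.6 and scipy 1.17.1, and figures matplotlib 3.10.9. On simulated data of the FVB/N comparison, 71% of differences of 0.5 and 98% of differences of 1 (log2) were recovered, with 9 false calls. The differences were placed in randomly drawn probe sets with their own spread, so these rates do not hold for Hspa1b. Its within-group standard deviation was 1.02, against a median of 0.124 over all probe sets. The members, lists and tests were chosen with earlier results of these data known. Named in full were members that passed, the 3 largest differences each way per comparison and the highest member per role, and of other lists up to 4 passing genes. Alternatives were array weights, no trend, centring, quantile normalisation, a filter on low levels, pairs only, gcRMA, a replicate block and leaving out arrays. Promoters came from RefSeq.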

Additional observations from a re-analysis of the deposited data

Results flagged for a closer look

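In 7 of 132 member groups of 4 embryos, 1 embryo lay so far from the other 3 that the gap to the nearest exceeded Dixon's critical value, and chance flags about 1 in 20 groups, or 6.6 here. Hsph1 was at 11.93 in BALB/cCrl mutant 2, with the other mutants at 12.18 to 12.21, and at 12.56 in BALB/cCrl wild type 3, with the other wild types at 12.09 to 12.13, the embryo with the highest Hspa1b. Fosl2 was at 5.70 in FVB/N wild type 2, with the others at 6.12 to 6.15. Ier2 was at 10.09 in FVB/N mutant 4, with the others at 10.23 to 10.25. Zfp36 was at 6.49 in FVB/N wild type 4, with the others at 6.36 to 6.38. Fosb, at background, was at 4.08 in FVB/N mutant 4, with the others at 3.84 to 3.85, and at 3.64 in FVB/N wild type 3, with the others at 3.75 to 3.77. Hspa1b itself was not among them.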

How the results depend on the processing

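For BALB/cCrl mutants no member passed under any alternative. The 2 calls in FVB/N mutants became 0 without mutants 3 and 4 (an alternative chosen after seeing the data), 1 with array weights, 0 in the gcRMA table, 1 with no intensity trend, 0 with only the 8 arrays of the pair and 0 after quantile normalisation, and 0 to 2 when 1 array was left out, staying at 2 in 3 of 16 cases. The 4 calls between wild type strains became 8 with array weights, 2 in the gcRMA table and 7 with only the 8 arrays, and 3 to 6 with 1 array left out. The 7 calls between mutant strains became 4 without FVB/N mutants 3 and 4, and 4 to 8 with 1 array left out. The interaction and the mean of both strains had 0 to 1 calls with 1 array left out, 1 without FVB/N mutant 2 for the interaction and 1 without BALB/cCrl mutant 2 for the mean. Without BALB/cCrl wild type 3 the BALB/cCrl difference between mutants and wild types turned to 0.0749 for Hspa1a, 0.12 for Hspa1b and -0.0105 for Ier3, and with any 1 array left out it spanned -0.55 to 0.0749 for Hspa1a, -0.98 to 0.12 for Hspa1b and -0.0105 to 0.37 for Ier3. The cause of these changes was not tested.

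Both Hspe1 probe sets kept their calls in both genotypes under each alternative run, as did Zfp36 in mutants. With 1 array left out, the Klf4 call was kept in 4 of 16 cases, Klf6 in FVB/N in 6, Nr4a1 in 4, Hmox1 in 12 and Zfp36 in wild types in 10. Of 24 correlations between same-numbered arrays of different groups, -0.15 to 0.17, 6 were over 0.1. Differently numbered arrays were not correlated, so whether replicate numbers pair the samples cannot be told from these values. A replicate block gave 0 and 2 calls for the BALB/cCrl and FVB/N mutants and 4 and 7 between strains in wild types and mutants, the same counts as without it, although Nr4a1 lost its call (adjusted p = 0.0710). Probe sequences were not compared with the genomes of the 2 strains, and a probe set near background bounds what it can show.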

Other observations

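Beyond the members, other chaperone genes followed Hspa1b from embryo to embryo. Of 30 further heat shock and chaperone genes, a family set against Hspa1b after its values were seen, 5 passed by deviations from group means, all with positive r: Chordc1 at 0.88, Bag3 at 0.80, Dnaja1 at 0.78, Dnajb4 at 0.71 and Ahsa1 at 0.68 (permutation tests, adjusted p between 0.006 and 0.0317). Bag3 is a co-chaperone that heat shock factor induces, Dnaja1 and Dnajb4 are HSP40 proteins, and Ahsa1 activates HSP90. Without BALB/cCrl wild type 3 and FVB/N wild type 4 they lay between 0.56 and 0.76. The median r of the 30 genes was 0.12, and subunits of the cytosolic chaperonin such as Cct2, Cct4 and Cct7 did not pass.

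Over all 18192 other genes, 20 had r above 0.8 with Hspa1b by the same deviations and 83 had r above 0.7, with a median of -0.02, given as a description of these 16 embryos. The first 8 by rank were Hspa1a (0.96), Dnajb1 (0.94), Xbp1 (0.91), Hsph1 (0.90), Dnajb9 (0.89), Ahsa2 (0.89), 1700001L19Rik (0.89) and Chordc1 (0.88).

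Phgdh, an enzyme of serine synthesis and a target of Atf4, split the BALB/cCrl embryos by probe set 1454714_x_at. It read 4.995 to 5.60 in 6 of them but 11.29 in mutant 4 and 11.23 in wild type 1, and 12.05 to 12.28 in the 8 FVB/N embryos. Its probe set 1437621_x_at spanned 11.78 to 12.12 over all 16, with BALB/cCrl mutant 4 at 11.93 and wild type 1 at 11.91, within the range of the other BALB/cCrl embryos.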
